A study of Mus musculus with 6 samples.

Results

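DNA replication and mitosis genes were followed as 52 genes given by symbol, 26 of DNA replication and the G1/S step and 26 of mitosis. They were taken for their function and not by a threshold on their values, though with earlier results of these data known. Of the 52 genes, 51 had a probeset annotated to that gene alone, and where a gene had several, the one of highest mean signal stood for it. All 51 exceeded the detection level on all 6 arrays. They stood among 15145 genes tested, of 19288 measured. Ccnb1, which encodes the mitotic cyclin B1, had no single-gene probeset and was not measured.

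The arrays came from cultured mouse embryonic fibroblasts that the series title calls dp53R and the sample titles Ras. The knockdown cells carried the construct shARF, a hairpin named for the tumour suppressor ARF, and the control cells carried shSCR, with 3 labelled biological replicates each. Both groups share the names dp53R and Ras, which the labels do not explain, so the alleles and agents behind them, the p53 status, the strain and the hairpin sequences are not given in the sources used here. The labels do not say whether the replicates were separate cultures, so the p-values rest on a spread between arrays that may be technical. A short hairpin RNA lowers the messenger RNA that it matches. Its target gene Cdkn2a, the locus of ARF and p16Ink4a, had signals of 315.4, 254 and 286 on the shARF arrays against 535, 539 and 516 on the shSCR arrays (limma, adjusted p = 0.00459). The difference was -0.90 ± 0.086 on the log2 scale (SE, n = 3 each), 1.87-fold lower in shARF cells. The sources used here do not say which transcripts of the locus this probeset reads. The median signal of an array was 41.97 to 42.86. All 11 measured fibroblast markers were above the detection level, at 319 to 6465. Of these 0 passed the test. The groups did not overlap for 63.6% of them, 5 higher and 2 lower in shARF cells, against 28.6% of all tested genes. Of the 7 macrophage markers 5 were below the detection level, Ptprc and Adgre1 among them, while Cd68 and Cd14 were above it on all 6 arrays. Cd68 differed by -0.36 without overlap (limma, adjusted p = 0.109) and Cd14 by 0.12 with overlap. Of the 6 endothelial markers 5 were tested, and no signal of that list was above 27.9. Cdh5 differed by 0.32 without overlap (limma, adjusted p = 0.0997), and 4 of the endothelial differences were negative. Of the 7 epithelial markers 6 were tested, and Cdh1 was below the detection level. The summed signal of the 7 epithelial markers was 503, 362 and 475 on the shARF arrays against 294, 258 and 298 on the shSCR arrays, most of it from Krt18 and Krt8. Krt18 rose (0.93 ± 0.176; limma, adjusted p = 0.037), a call lost without 5 of the 6 arrays in turn (limma, adjusted p from 0.0230 to 0.114). The other 5 tested did not pass, with Krt8 at 0.74 and Cldn4 at -0.23. The part of these markers in the values below was not tested.

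Replication begins when the origin recognition complex, CDC6 and CDT1 load the ring-shaped MCM helicase onto DNA, and cyclin E with its kinase then starts S phase. Factors of the E2F family switch on the genes of this step once cyclin-dependent kinases inactivate the retinoblastoma protein. The genes of mitosis come on later, through B-MYB with the MuvB complex and then FOXM1, and many are cleared by the anaphase-promoting complex. ARF holds back MDM2 and so stabilises p53, and p53 in turn lowers many genes of both groups through p21 and the DREAM repressor complex.

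No replication or mitosis gene passed the test between shARF and shSCR cells. Of the 51 genes measured, 0 had an adjusted p under 0.05 (limma, adjusted p from 0.18 to 0.984), against 4.01% of all tested genes. At an unadjusted p under 0.05 there were 4, all of them replication genes, with Pcna higher in shARF cells and Pole, Rfc3 and Tyms lower. That is 7.84% of the members, 15.4% of the replication genes and 0% of the mitosis genes, against 22.2% of all tested genes. This count of 4 was 3 without shARF replicate 1 or 2 and 1 without shARF replicate 3 or any single shSCR array. It was 0 with the replicate number as a block and 2 with no filter on dim probesets or with quantile normalization. It was 7 with a stricter filter, 8 with log2(value + 16) and 9 with a variance trend and robust fitting, where 1 member, Pcna, passed the test. The median absolute difference of the members was 0.0784 on the log2 scale, beside a median SD between replicates of 0.0695. The arrays of the groups did not overlap for 14 members, 27.5% of them, against 28.6% of all tested genes. These were 9 of the 26 replication genes (34.6%), 2 higher and 7 lower in shARF cells. The others were 5 of the 25 mitosis genes (20%), 2 higher and 3 lower. On bulk arrays a change in the share of cycling cells and a change in transcript per cycling cell cannot be told apart.

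The size of each difference is given with a 95% interval for that gene alone, not adjusted for the number of genes. The intervals rest on the spread between arrays, which may be technical. The replication genes differed by -0.17 (Rfc3) to 0.15 (E2f2) on the log2 scale, with a median of -0.04. The mitosis genes differed by -0.12 (Birc5) to 0.15 (Hmmr), with a median of -0.003. The median of all tested genes was -0.01. The 95% interval of the difference lay within 0.5 log2 units on either side of 0, a 1.41-fold change, for 50 of the 51 members and for 86% of all tested genes. The exception was E2f2. For all 51 members the interval lay within 1 log2 unit, a 2-fold change, as it did for 98.9% of all tested genes. The median SD between replicates was 0.07 for the members and 0.102 for all tested genes. The replicate spread of a probeset depends on its signal. When all tested genes were put in 4 bins of signal, 40 of the 51 members were in the highest bin. The median SD there was 0.0683 for the members and 0.0682 for all genes. The median absolute difference there was 0.0702 for the members and 0.0857 for all genes.

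**Figure D1:**
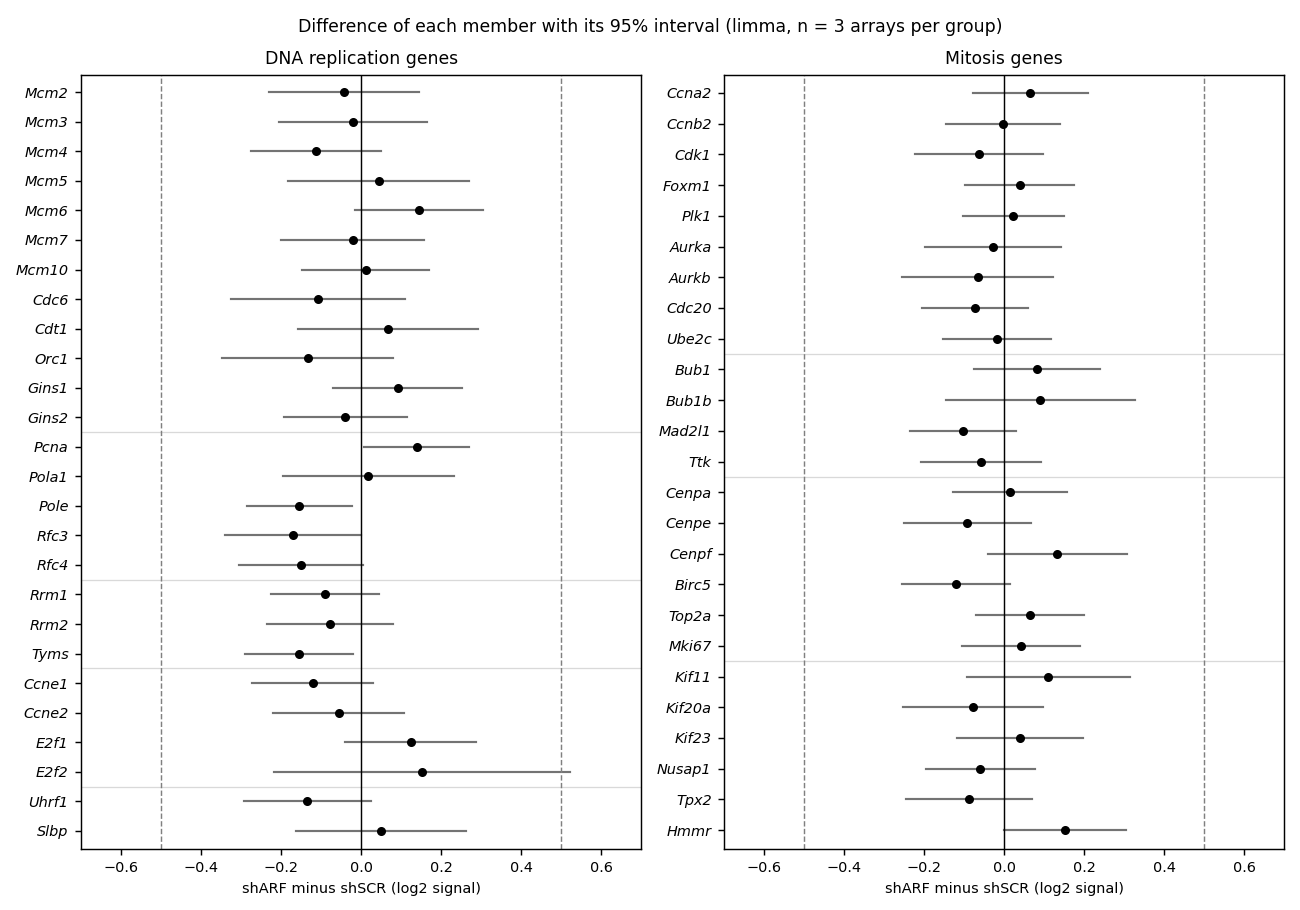
Difference of each of the 51 measured members (shARF minus shSCR, log2 signal) with its 95% interval from limma, replication genes on the left and mitosis genes on the right, ordered by role. Grey lines part the roles and dashed lines mark -0.5 and 0.5, which only the interval of E2f2 crosses, reaching 0.52.

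**Figure D2:**
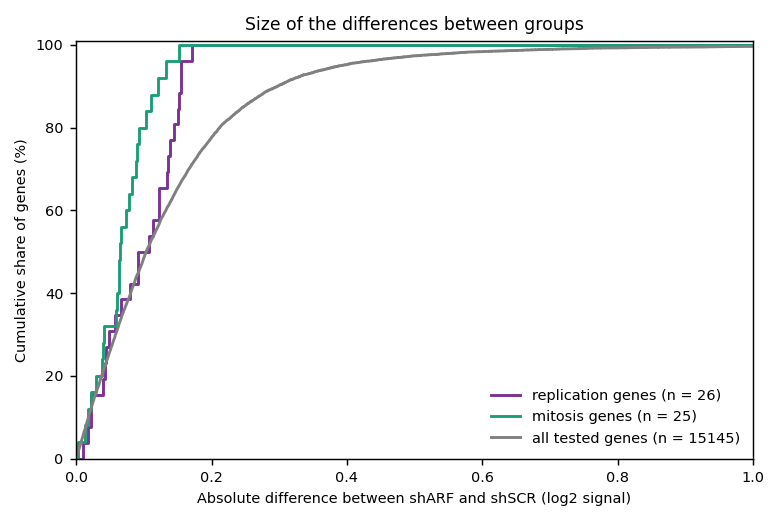
Cumulative share of genes (%) against the absolute difference between shARF and shSCR (log2 signal) for the 26 replication genes, the 25 measured mitosis genes and the 15145 tested genes, cut at 1. Both member curves reach 100% below 0.2. A difference of more than 0.5 was seen for 0 of the 51 members and 2.65% of all tested genes.

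The shares of promoters with a motif differed between the replication and the mitosis genes, a description with no test, and 8 of them are printed here as examples of each set. RefSeq promoter windows of assembly GRCm38.p6, from 250 bases before to 50 after the transcription start, were at hand for 21 of the 26 replication genes and 21 of the 26 mitosis genes. Mcm4, Gins1, Gins2, Pole, Ccne2, Ccna2, Foxm1, Aurkb, Kif20a and Tpx2 had no window. Each window was searched on both strands for TTCCCGC and TTGGCGC, cores of E2F sites, for TTTGAA and TTTAAA, the cell cycle homology region (CHR) read by the MuvB complex, and for CCAAT, the box bound by NF-Y. A match is a run of letters and not a measured site. Matches may overlap.

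An E2F core stood in 57.1% of the replication genes (12 of 21), against 14.3% of the mitosis genes and 7.79% of all 27025 genes in the table. A CHR stood in 85.7% of the mitosis genes (18 of 21), against 28.6% of the replication genes and 30.6% of all genes. It lay within 50 bases of the start in 76.2% of the mitosis genes, 19% of the replication genes and 9.54% of all genes. CCAAT stood in 85.7% of the mitosis genes, 71.4% of the replication genes and 41.1% of all genes. Of the mitosis genes 81% held a CHR and CCAAT together, against 23.8% of the replication genes and 12.2% of all genes. Mad2l1 and Nusap1 were mitosis genes with no match to any of the 5 motifs, and so were Tyms and E2f1 among the replication genes.

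**Figure D3:**
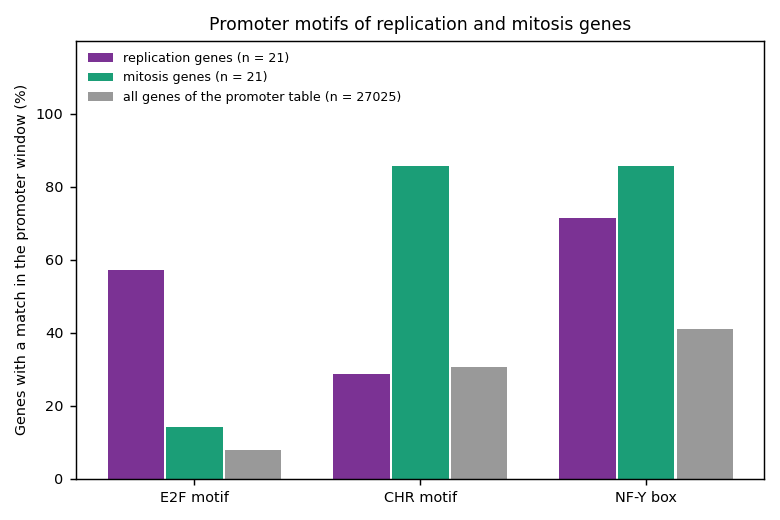
Share of genes (%) with at least 1 match in the 300-base promoter window, for the E2F cores, the CHR and the NF-Y box. Bars are the 21 replication genes, the 21 mitosis genes and all 27025 genes of the table; the E2F bar is highest for replication genes at 57.1% and the CHR bar for mitosis genes at 85.7%.

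The windows below run 5′ to 3′ along the gene, with matches in capitals. Pola1 and Mcm3 held the most E2F cores among replication genes, 4 and 3, and Top2a and Ube2c the most CHR and CCAAT matches added together among mitosis genes. Of CHR matches alone, Plk1 held the most, 3. These 4 were picked after the matches were counted. Tyms, Pcna, Hmmr and Birc5 are the members of each set with the smallest p that had a window.
Pola1, chrX:93632106-93632405, minus strand: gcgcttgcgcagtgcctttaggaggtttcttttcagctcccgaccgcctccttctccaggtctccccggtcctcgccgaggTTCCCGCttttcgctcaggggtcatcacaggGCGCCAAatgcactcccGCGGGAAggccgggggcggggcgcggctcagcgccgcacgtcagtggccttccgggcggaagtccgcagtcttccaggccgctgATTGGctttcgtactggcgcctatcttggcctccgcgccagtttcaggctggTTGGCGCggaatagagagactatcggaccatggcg
Mcm3, chr1:20820263-20820562, minus strand: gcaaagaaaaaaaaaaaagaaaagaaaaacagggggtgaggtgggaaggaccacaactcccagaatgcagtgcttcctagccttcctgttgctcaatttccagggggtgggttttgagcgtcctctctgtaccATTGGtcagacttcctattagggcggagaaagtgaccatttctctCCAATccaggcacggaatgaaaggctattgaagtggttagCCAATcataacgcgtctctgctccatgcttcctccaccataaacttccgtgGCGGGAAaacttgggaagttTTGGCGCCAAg
Pcna, chr2:132253131-132253430, minus strand: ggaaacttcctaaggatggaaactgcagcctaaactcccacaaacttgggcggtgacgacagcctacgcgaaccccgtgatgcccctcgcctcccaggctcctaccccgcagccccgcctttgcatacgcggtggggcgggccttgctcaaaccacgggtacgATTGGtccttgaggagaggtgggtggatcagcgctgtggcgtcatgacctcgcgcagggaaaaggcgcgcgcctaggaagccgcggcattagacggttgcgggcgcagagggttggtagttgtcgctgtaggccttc
Tyms, chr5:30073576-30073875, minus strand: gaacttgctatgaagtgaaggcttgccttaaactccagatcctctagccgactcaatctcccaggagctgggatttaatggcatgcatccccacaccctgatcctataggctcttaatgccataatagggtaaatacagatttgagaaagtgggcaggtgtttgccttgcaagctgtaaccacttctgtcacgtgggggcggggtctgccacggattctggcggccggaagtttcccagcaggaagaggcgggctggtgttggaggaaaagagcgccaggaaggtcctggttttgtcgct
Top2a, chr11:99024140-99024439, minus strand: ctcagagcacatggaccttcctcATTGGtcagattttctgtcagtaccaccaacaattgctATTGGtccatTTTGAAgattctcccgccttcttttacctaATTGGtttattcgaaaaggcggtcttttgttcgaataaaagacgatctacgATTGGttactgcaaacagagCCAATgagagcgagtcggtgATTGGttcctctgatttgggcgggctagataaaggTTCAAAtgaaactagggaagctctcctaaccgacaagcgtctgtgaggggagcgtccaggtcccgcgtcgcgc
Ube2c, chr2:164769679-164769978, plus strand: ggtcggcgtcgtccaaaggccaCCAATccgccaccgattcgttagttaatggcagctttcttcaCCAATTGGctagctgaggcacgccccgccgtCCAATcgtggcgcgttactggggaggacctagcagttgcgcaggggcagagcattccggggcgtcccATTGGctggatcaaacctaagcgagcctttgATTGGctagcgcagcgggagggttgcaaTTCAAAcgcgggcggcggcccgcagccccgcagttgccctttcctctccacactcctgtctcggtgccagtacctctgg
Hmmr, chr11:40733388-40733687, minus strand: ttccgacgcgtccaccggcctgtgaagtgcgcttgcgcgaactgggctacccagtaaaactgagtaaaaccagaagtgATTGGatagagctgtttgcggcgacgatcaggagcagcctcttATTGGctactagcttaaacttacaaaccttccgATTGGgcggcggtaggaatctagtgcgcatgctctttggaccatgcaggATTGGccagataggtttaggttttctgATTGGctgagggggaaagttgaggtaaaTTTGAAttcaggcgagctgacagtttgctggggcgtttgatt
Birc5, chr11:117848987-117849286, plus strand: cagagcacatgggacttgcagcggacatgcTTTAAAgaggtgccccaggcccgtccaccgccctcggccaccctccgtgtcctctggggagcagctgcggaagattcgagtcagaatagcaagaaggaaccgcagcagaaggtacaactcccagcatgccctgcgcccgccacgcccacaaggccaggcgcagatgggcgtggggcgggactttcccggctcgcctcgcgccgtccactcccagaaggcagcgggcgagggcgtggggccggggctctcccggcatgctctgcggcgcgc

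In Pola1 the 4 E2F cores flank a CCAAT read on the opposite strand 37 bases before the start. In Top2a the CHR nearest the start lies 23 bases before it and follows a row of CCAAT boxes, and in Ube2c it lies 29 bases before the start. Hmmr had 5 CCAAT boxes and a CHR just inside the transcript. Birc5 had only a CHR 220 bases upstream, and Tyms had no match. The difference in expression was 0.02 for Pola1, -0.02 for Mcm3, 0.06 for Top2a and -0.02 for Ube2c (log2, shARF minus shSCR).

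The helicase genes and the genes that load the helicase passed the test in neither direction. Their 12 differences ranged from -0.13 (Orc1) to 0.14 (Mcm6), 5 of them positive, with a median of -0.02. Mcm6, a subunit of the MCM ring, had signals of 635, 719 and 690 on the shARF arrays against 596, 628 and 624 on the shSCR arrays. The shARF arrays were all above the shSCR arrays, yet the difference of 0.14 ± 0.068 (SE) did not pass (limma, adjusted p = 0.286). Mcm3, another ring subunit, had 430.5, 499.998 and 428 in shARF cells against 443, 458 and 475 in shSCR cells, and the groups overlapped. Its difference was -0.02 ± 0.079. Mcm2 had a difference of -0.04, Mcm4 of -0.11, Mcm5 of 0.04 and Mcm7 of -0.02 on the log2 scale. The groups overlapped for each of these ring subunits.

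Mcm4 gave 526, 587 and 580 in shARF cells against 585, 632 and 613 in shSCR cells. The highest shARF array lay just above the lowest shSCR array. Mcm10, which acts when origins fire, differed by 0.01. Cdc6, a loader of the helicase, gave 108, 115 and 104 in shARF cells against 104, 118 and 131 in shSCR cells, a difference of -0.11 ± 0.093. Cdt1, its partner in loading, differed by 0.07 and Orc1, the largest subunit of the origin recognition complex, by -0.13. Gins1 and Gins2, parts of the GINS complex that joins the active helicase, differed by 0.09 and -0.04.

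The genes of the replication fork split in direction, with none passing. Pcna, the sliding clamp that holds polymerases on DNA, had the signals 2053, 2095 and 2091 on the shARF arrays against 1829, 1929 and 1912 on the shSCR arrays. All shARF arrays were above all shSCR arrays, by 1.10-fold, a difference of 0.14 ± 0.056 (limma, adjusted p = 0.224). Its other probeset differed by the same 0.14, with nearly equal signals of 2055, 2099 and 2083 against 1822, 1919 and 1904. Whether the probesets are separate measures was not tested. Pole, the catalytic subunit of the leading strand polymerase, had 212, 210.2 and 216 in shARF cells against 241, 229.6 and 239 in shSCR cells. All shARF arrays were lower, with a difference of -0.16 ± 0.056 (limma, adjusted p = 0.18). Rfc3, a subunit of the loader that opens the clamp, had 309.9, 331 and 339 in shARF cells against 368, 392 and 344 in shSCR cells. The groups did not overlap, and the difference of -0.17 ± 0.072 did not pass (limma, adjusted p = 0.238). Rfc4, of the same loader, differed by -0.15 without overlap, and Pola1, which starts each new strand with primase, by 0.02 with overlap.

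All 3 genes of nucleotide supply had negative differences, and none passed. Tyms, which makes thymidylate, had 656, 700.3 and 673 in shARF cells against 756, 739.96 and 763 in shSCR cells. The groups did not overlap, and the difference was -0.16 ± 0.058 (limma, adjusted p = 0.191). Rrm1, the large subunit of ribonucleotide reductase, had 1027, 1103 and 1079 in shARF cells against 1140, 1139 and 1139 in shSCR cells. Its shSCR arrays lay within 1 unit of each other, and all shARF arrays were lower, by 0.09 on the log2 scale. Rrm2, the small subunit made in S phase, differed by -0.08 with overlap.

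The cyclin E and E2F genes differed in both directions. Ccne1 had 468, 457 and 477 in shARF cells against 541, 485 and 500.2 in shSCR cells. The shARF arrays were all lower, with a difference of -0.12 ± 0.065 (limma, adjusted p = 0.337). Ccne2, the other cyclin E gene, differed by -0.06. E2f1, an activating E2F, had 145, 143 and 132 in shARF cells against 129, 135 and 122 in shSCR cells, a difference of 0.12 ± 0.07. The groups overlapped between the lowest shARF and the highest shSCR array. E2f2, also an activator, had signals close to the detection level, at 27.6, 23.5 and 18.4 in shARF cells against 18.2, 23.5 and 20.4 in shSCR cells. Its difference of 0.15 had the widest interval, from -0.22 to 0.52. Uhrf1, which brings DNA methylation to newly made DNA, differed by -0.14 without overlap, and Slbp, which binds histone messenger RNA, by 0.05. The other Slbp probeset differed by -0.03.

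**Figure D4:**
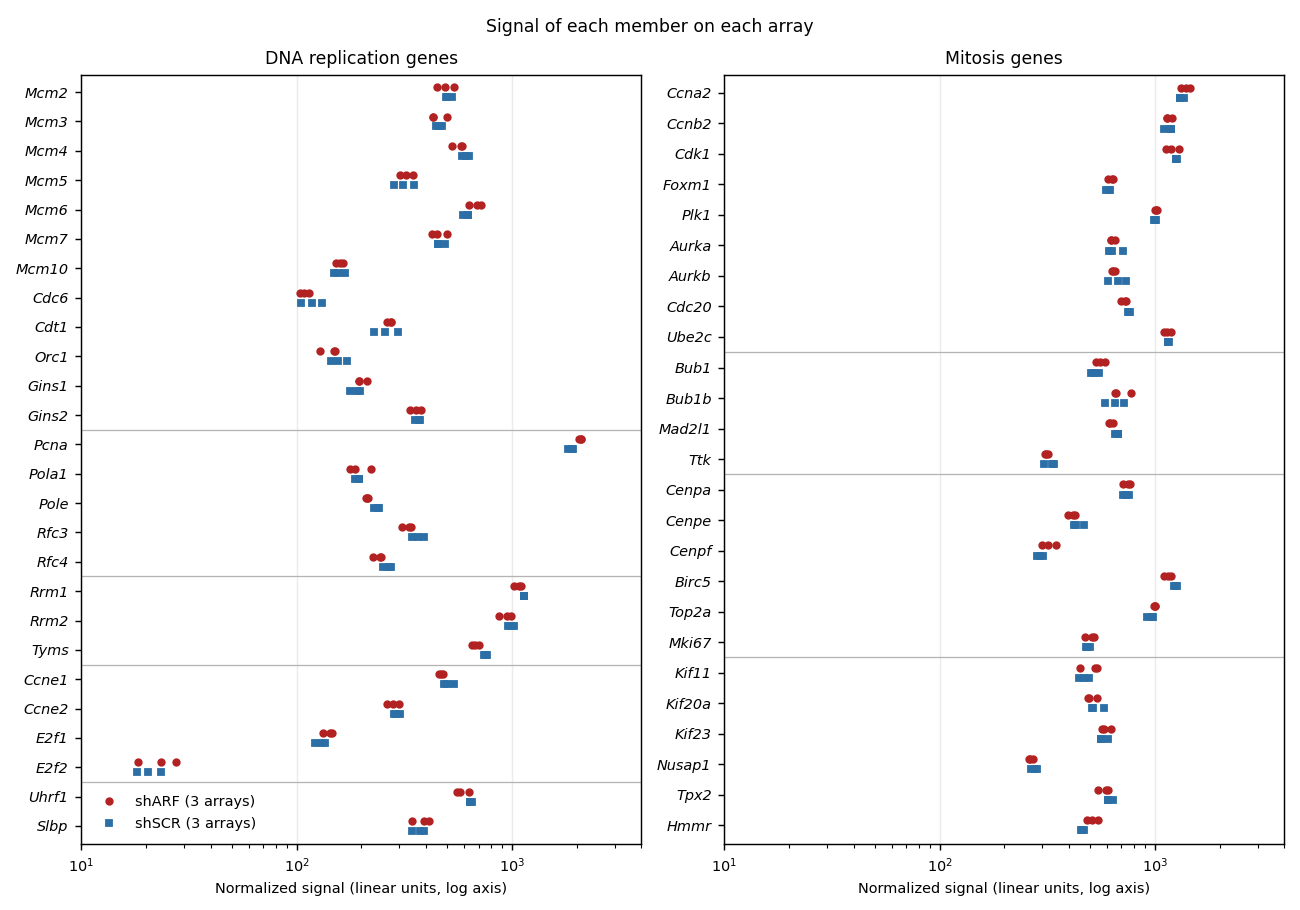
Normalized signal (linear units on a log axis) of the 51 measured members on each of the 3 shARF arrays (circles, upper of each pair) and the 3 shSCR arrays (squares), replication genes left and mitosis genes right, with grey lines between roles. Pcna, Pole and Tyms are among the 14 genes whose groups do not overlap.

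The cyclins, kinases and regulators that drive mitosis passed the test in neither direction. The 9 measured genes differed by -0.07 (Cdc20) to 0.07 (Ccna2), 3 of them positive. Plk1, a kinase of spindle assembly and mitotic exit, had 1018, 1004 and 1028 in shARF cells against 1013, 1003 and 987 in shSCR cells. The groups overlapped, and the difference was 0.02, with a 95% interval of -0.10 to 0.15. Cdk1, the kinase of mitotic entry, had 1125, 1291 and 1192 in shARF cells against 1249, 1251 and 1263 in shSCR cells. The shSCR arrays lay between the middle and the highest shARF array. Ccnb2, a mitotic cyclin, differed by -0.003, Ccna2, the cyclin of S phase and G2, by 0.07, and Foxm1, the transcription factor of the mitotic genes, by 0.04. Aurka and Aurkb, kinases of the spindle poles and of the chromosomes, differed by -0.03 and -0.07. Ube2c, the ubiquitin-conjugating enzyme of the anaphase-promoting complex, differed by -0.02.

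Cdc20, the activator of that complex, was the member of this role whose groups parted. It had 736, 727 and 696 in shARF cells against 764, 759.996 and 747 in shSCR cells, and every shARF array was lower. The difference of -0.07 ± 0.056 did not pass (limma, adjusted p = 0.497).

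The spindle checkpoint, which holds back anaphase until chromosomes are attached, and the centromere genes differed in both directions. Mad2l1, whose product binds CDC20, had 611, 639.9 and 619.9 in shARF cells against 677, 654 and 678 in shSCR cells. All shARF arrays were lower, with a difference of -0.10 ± 0.056 (limma, adjusted p = 0.351). The checkpoint kinase genes Bub1 and Ttk differed by 0.08 and -0.06, and Bub1b, which encodes BUBR1, by 0.09. Birc5, the survivin of the chromosomal passenger complex, had 1106, 1184 and 1156 in shARF cells against 1225, 1262 and 1260.2 in shSCR cells. The groups did not overlap, and the difference of -0.12 ± 0.058 did not pass (limma, adjusted p = 0.293).

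Top2a, the topoisomerase that untangles chromosomes, had 1004, 1002 and 994 in shARF cells against 982, 916 and 973 in shSCR cells on its bright probeset. The shARF arrays were all higher, by 0.06 on the log2 scale. Its dim probeset gave 38, 28 and 34.7 in shARF cells against 46.6, 53.8 and 37.2 in shSCR cells, lower on the shARF arrays by 0.45, and did not pass either (limma, adjusted p = 0.177). The probesets of this gene thus lay on opposite sides of 0. Mki67, the proliferation antigen Ki-67, had 474, 509.6 and 521 in shARF cells against 478, 498 and 485 in shSCR cells, and the groups overlapped. Cenpa, the histone variant of centromeres, differed by 0.01, and the kinetochore genes Cenpe and Cenpf by -0.09 and 0.13.

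Of the 6 genes of motors and spindle, Hmmr parted the groups. Hmmr, which encodes a receptor of hyaluronan that also binds spindle microtubules, had 513, 484 and 542 in shARF cells against 460.3, 453 and 471 in shSCR cells. All shARF arrays were higher, by 1.11-fold, the largest difference among the mitosis genes (0.15 ± 0.065; limma, adjusted p = 0.243). The motor genes Kif11, Kif20a and Kif23 differed by 0.11, -0.08 and 0.04. Nusap1 and Tpx2, microtubule binders of the spindle, differed by -0.06 and -0.09. All 5 overlapped between the groups.

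Many members had their highest value within a group on the same array. All 12 genes of the helicase and its loading had their highest shARF value on replicate 2, and so did 18 of the 26 replication genes (69.2%), 13 of the 25 mitosis genes (52%) and 39% of all tested genes. Relative to the shSCR mean of each gene, the median of the 12 helicase genes was -0.05, 0.09 and -0.06 on shARF replicates 1, 2 and 3, against -0.05, 0.03 and 0.02 on shSCR replicates 1, 2 and 3. The median of the 12 differences between the groups was -0.02, less than the distance between shARF replicate 2 and the other shARF arrays. All 4 checkpoint genes had their highest shARF value on replicate 2 as well. In the shSCR group all 4 checkpoint genes and all 6 genes of motors and spindle were highest on replicate 3, against 32.6% of all tested genes. Of the other mitosis roles, 2 of the 6 centromere genes and 3 of the 9 cyclins, kinases and regulators were highest there. In all, these were 15 of the 25 mitosis genes (60%), against 7 of the 26 replication genes (26.9%). Without shARF replicate 2 the median of the replication genes was -0.08, and 0 of them passed.

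**Figure D5:**
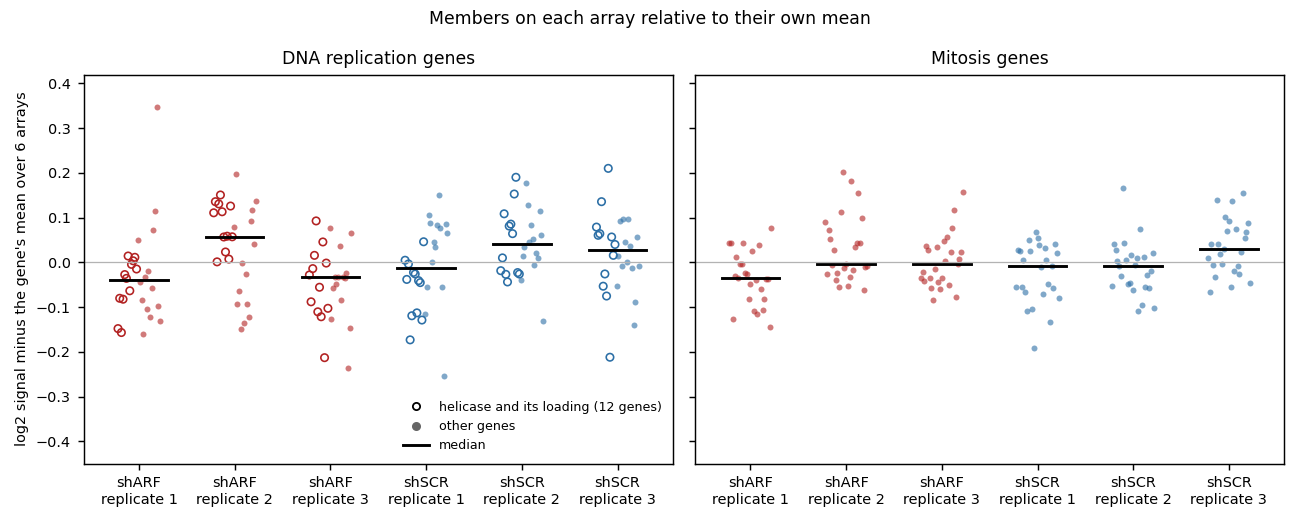
Log2 signal of each member minus its mean over the 6 arrays, on the 3 shARF and the 3 shSCR arrays, replication genes left (open circles, the 12 genes of the helicase and its loading) and mitosis genes right; bars are medians. The open circles stand highest on replicate 2 among the shARF arrays.

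Genes of the same processes outside the 52 were counted beside all tested genes. Among 43 further replication genes 0 passed (limma), against 4.01% of all tested genes. At an unadjusted p under 0.05 there were 1 higher and 7 lower, 18.6% of them. The share of all tested genes was 22.2% (1326 higher and 2035 lower). The groups did not overlap for 37.2% of the 43, against 28.6% of all tested genes. The median difference of the 43 was -0.04. Prim1, the catalytic primase subunit, had 399, 414 and 432 in shARF cells against 484, 518 and 507 in shSCR cells. The groups did not overlap, and the difference of -0.28 ± 0.062 fell short of the threshold (limma, adjusted p = 0.0605). Tk1, thymidine kinase, differed by -0.29 ± 0.077 (limma, adjusted p = 0.0931) and Gins4 by -0.24 ± 0.069 (limma, adjusted p = 0.121), both without overlap. Of these 43 genes 2 passed with the stricter filter on dim probesets or with log2(value + 16), and 4 with a variance trend and robust fitting.

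Among 79 further mitosis genes 2 fell and 0 rose, 2.53% of them, against 4.01% of all tested genes. At an unadjusted p under 0.05 there were 3 higher and 13 lower, 20.3% of them, against 22.2% of all tested genes. The groups did not overlap for 32.9% of the 79, against 28.6% of all tested genes. The median difference of the 79 was -0.03, with 26 positive and 53 negative. Positive differences were 32.9% of the 79 and 46.8% of all tested genes. The number that passed was 5 with the stricter filter or with log2(value + 16), 6 with a variance trend and robust fitting, 1 with no filter and 0 or 1 without any single array. Wee1, the kinase that restrains CDK1, gave 132, 126 and 136 in shARF cells against 201, 174 and 179 in shSCR cells. It fell by 0.49 ± 0.074 on the log2 scale (limma, adjusted p = 0.0195), and the groups were well apart. The call was lost without 5 of the 6 arrays in turn, and of these fits it held only without shSCR replicate 2 (limma, adjusted p from 0.0411 to 0.0703). Sgo1, the shugoshin that guards centromere cohesion, gave 219, 212 and 220.4 in shARF cells against 272, 281 and 264 in shSCR cells. It fell by 0.33 ± 0.058 (limma, adjusted p = 0.0309), a call lost without any 1 of the 6 arrays (limma, adjusted p from 0.0726 to 0.103). Cdc16, a subunit of the anaphase-promoting complex, differed by -0.28 ± 0.065 (limma, adjusted p = 0.0703).

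A list of 27 genes that control these programmes held the RB, E2F, DREAM and B-MYB genes with the G1 cyclins and kinases. Of these 1 rose and 0 fell, 3.70% of them, against 4.01% of all tested genes. At an unadjusted p under 0.05 there were 3 higher and 5 lower, 29.6% of them, against 22.2% of all tested genes. The groups did not overlap for 40.7% of the 27, against 28.6% of all tested genes. These shares were 44.4% and 55.6% for the 9 genes of G1 cyclins, kinases and CDC25A. For the 18 RB, E2F, DREAM and B-MYB genes they were 22.2% and 33.3%. The number that passed was 3 with the stricter filter or with a variance trend and robust fitting, 2 with log2(value + 16), and 0 with no filter or without any single array. Ccnd3, cyclin D3 of early G1, had 696, 725 and 681 in shARF cells against 585, 536 and 549.5 in shSCR cells. It rose by 0.33 ± 0.063 (limma, adjusted p = 0.0375), and this call too was lost without any 1 of the 6 arrays (limma, adjusted p from 0.0765 to 0.129). Cdk2, the partner of cyclin E, had 214, 199.7 and 194 in shARF cells against 245, 242 and 239 in shSCR cells, lower on every shARF array without passing (limma, adjusted p = 0.0752). Lin9, of the MuvB complex, differed by -0.25 ± 0.066 (limma, adjusted p = 0.0931).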

How the data were processed

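The authors deposited 1 intensity per probeset and array on a linear scale, for 26851 probesets. Per the submitters' processing notes and the design text, these came from Affymetrix Expression Console with RMA on core probesets; versions and a genome build are not given in the sources used here. RMA makes array distributions alike, so a shift shared by most genes would not show. The text names SAM, which was not run.

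Here the intensities were turned to log2. A probeset was tested when it exceeded the 25th percentile of its array, the detection level, on at least 3 of 6 arrays (20310 probesets). The test was limma (version 3.58.1, R version 4.3.3; lmFit and eBayes, two-sided), with Benjamini-Hochberg adjustment over all tested probesets and a threshold of 0.05. It was also tested on simulated data. Levels are linear signals per array, and differences are shARF minus shSCR in log2 with their SE (n = 3 each).

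Symbols came from the platform annotation: 21056 probesets had 1 symbol, 1450 several and 4345 none. Members and lists were chosen with earlier results of these data known. All members were named; of the other lists, genes that passed and the 3 with the smallest p. Of the promoters, those of the 2 members of each set with the smallest p and a window were shown, with 2 of each set chosen after the matches were seen. The alternatives were other filters on dim probesets, an offset of 16, other scalings, the mean of a gene's probesets, a variance trend with robust fitting, the replicate number as a block, and leaving out each array. The 3 arrays per group limit the precision.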

Additional observations from a re-analysis of the deposited data

How the results depend on the processing

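The number of genes called depended on the settings, and the number of members called was 0 or 1. The count of members at an unadjusted p under 0.05 did move, from 0 to 9. That of all tested genes was 2627 to 3573. The 607 genes called became 372 without a filter on dim probesets, 996 with a stricter filter, 978 with log2(value + 16), 1281 with a variance trend and robust fitting, and 150 to 330 on leaving out 1 array. The causes were not tested. Replication members called stayed at 0 except under the variance trend, where 1 passed (Pcna, limma, adjusted p = 0.046). Mitosis members called were 0 throughout. Median differences moved by less than the SD between replicates under each alternative. Of 713 member values under alternatives 711 moved by less than the SD of that gene with no change of call; the others were Pcna and Top2a, which was -0.19 with its probesets averaged. Sgo1 and Ccnd3 lost their calls without a filter on dim probesets (limma, adjusted p = 0.0568 and 0.0657).

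With the replicate number as a block 336 genes and 0 members were called, and Sgo1 and Ccnd3 lost their calls (limma, adjusted p = 0.0898 and 0.0939). Deviations of same-numbered arrays from their group means correlated at 0.08, 0.05 and 0.001 over probesets, and shARF replicate 2 correlated best with shSCR replicate 3. Within a group of 3 arrays the deviations sum to 0, so these values cannot decide whether same-numbered arrays were handled together. Probesets near background, such as that of E2f2, are limited by signal.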
